A study of Mus musculus with 27 samples.

Results

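The Tbx5 by Brg1 interaction was measured in hearts of mouse embryos at stage E11.5. For each gene it is the change that came with the Brg1 deletion in Tbx5+/- hearts minus the change that came with it in hearts with both Tbx5 copies. On the log2 scale this is how far the level in doubly heterozygous hearts lay from the sum of the single changes. A value of 0 means that the changes add, a positive value means that the doubly heterozygous hearts lay above that sum, and a negative value that they lay below it. All 19935 genes with a probe set of their own, by the platform's gene symbols, were measured, and 20 of the 27 arrays of the series entered the contrast. These were 6 wild type arrays, 6 Brg1+/- arrays, 5 Tbx5+/- arrays and 3 Tbx5+/- Brg1 +/- arrays. The deletions are heterozygous, the strain is a C57Bl/6/BLKSW mix in all groups, and the tissue is the dissected heart. No group carries a second treatment or transgene by its label, and the allele, the deleted exons and the embryo sex are not given in the sources used here. The labels do not say that the arrays of a group came from separate embryos or litters. The p-values therefore measure the spread between these samples, part of which may be technical. Signals of the sex-linked genes Xist and Eif2s3y were of both kinds, male and female, in each genotype. The arrays of a genotype thus did not all come from the same embryo.

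Tbx5 is a T-box transcription factor of the atria, the conduction system and the left ventricle. Brg1 is the motor subunit, an ATPase encoded by Smarca4, of BAF complexes, which remodel chromatin by moving nucleosomes and so open regulatory DNA to transcription factors. Both are known as dosage-sensitive genes of heart development, and losing a single copy of TBX5 causes Holt-Oram syndrome in people. The comparison asks whether the remaining dose of Brg1 alters what the loss of a Tbx5 copy does to transcript levels.

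The arrays separated the genotypes at Smarca4, with an exception. Over the wild type arrays the lowest, median and highest Smarca4 signals were 9.95, 10.07 and 10.16 (log2), and over the Brg1+/- arrays they were 9.16, 9.36 and 9.45. The Tbx5+/- arrays read 9.92, 10.02, 10.10, 10.11 and 10.23, and the Tbx5+/- Brg1 +/- arrays read 9.51, 9.64 and 10.01. The array labelled Tbx5+/- Brg1 +/- replicate 3, at 10.01, thus lay among the arrays without a Brg1 deletion, which ran from 9.89 to 10.23 over the other 14 such arrays of the series, and above the other 11 arrays with one, which ran from 9.16 to 9.64. An array labelled Nkx2-5+/- replicate 3, at 9.57, lay among the arrays with a Brg1 deletion, and it entered here only through the shared estimate of spread. At Nkx2-5 the former array read 9.65, above 8.48, 8.48 and 8.63 in the other Nkx2-5+/- arrays, and the latter read 9.40. Whether the labels of these 2 arrays were exchanged was not tested beyond these values. Genotypes are by label throughout, so the doubly heterozygous arrays include replicate 3. Medians of gene lists are given with and without it, and so is each gene whose interaction it moved by over 1.5 times. The Smarca4 interaction was 0.39 (SE 0.15, 95% interval 0.08 to 0.70) and 0.24 without that array. The smallest limma adjusted p of the interaction over all genes was 0.51, so no interaction given here passed the test.

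Tbx5 itself was not lower in the Tbx5+/- arrays. Its lowest, median and highest signals were 8.39, 8.53 and 8.96 in wild type and 7.83, 8.13 and 8.35 in Brg1+/-. The Tbx5+/- arrays read 8.80, 8.88, 8.51, 8.90 and 8.89, and the Tbx5+/- Brg1 +/- arrays read 8.63, 8.70 and 8.50. All Brg1+/- arrays lay below all arrays of the other 3 genotypes, with a mean difference of -0.45 from wild type (limma adjusted p 0.33). The interaction at Tbx5 was 0.27 (SE 0.19), and 0.32 without replicate 3. Since the deleted exons are not given, the Tbx5 probe set does not check that label. Nkx2-5, a homeobox partner of Tbx5 that is intact in these 4 genotypes, had group means of 9.59 ± 0.34 (SD, n = 6) in wild type, 9.39 ± 0.26 (n = 6) in Brg1+/-, 9.90 ± 0.13 (n = 5) in Tbx5+/- and 9.83 ± 0.16 (n = 3) in Tbx5+/- Brg1 +/-. Its interaction was 0.14 (SE 0.25), and 0.23 without replicate 3.

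**Figure D1:**
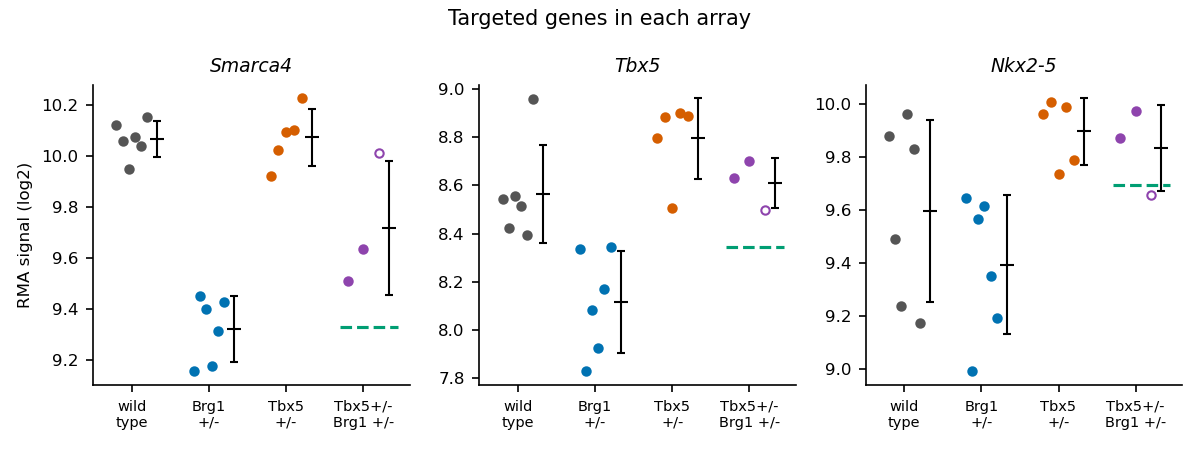
RMA signal (log2, vertical axis) of Smarca4, Tbx5 and Nkx2-5 in each array of the 4 genotypes (horizontal axis), with a bar for the mean ± SD and a green dashed line at the sum of the single changes. The open circle is Tbx5+/- Brg1 +/- replicate 3, whose Smarca4 signal of 10.01 sits among the arrays with both Brg1 copies.

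Of 19935 genes, 0 (0%) had an interaction with a limma adjusted p under 0.05, and the smallest adjusted p of 0.51 was shared by 1700003E16Rik and Vmn1r48. At an unadjusted p under 0.05 there were 606 genes (3.04%), of which 393 were positive (1.97%) and 213 negative (1.07%). Without Tbx5+/- Brg1 +/- replicate 3 there were 0 genes at the adjusted threshold and 842 (4.22%) at the unadjusted one. All genes named here are therefore given as values without a call.

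The interactions were small for most genes. The median over all genes was 0.03, the quartiles were -0.08 and 0.14, and 11453 genes (57.5%) lay above 0. An interaction of at least 0.5 in size was estimated for 290 genes (1.45%) and of at least 1 for 13 genes. The 95% interval of a gene reached 0.36 to either side at the median. It lay wholly within 1 log2 unit of 0 for 19400 genes (97.3%) and within 0.5 for 10772 genes (54.0%). For the others the interval reached past 0.5, so a departure of that size was not detectable or not bounded with these arrays. Only 3 arrays are labelled with both deletions, and without replicate 3 the median half-width was 0.40. Of the 112 named genes, 15 then moved by over 1.5 times, and Nppa alone changed sign.

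**Figure D2:**
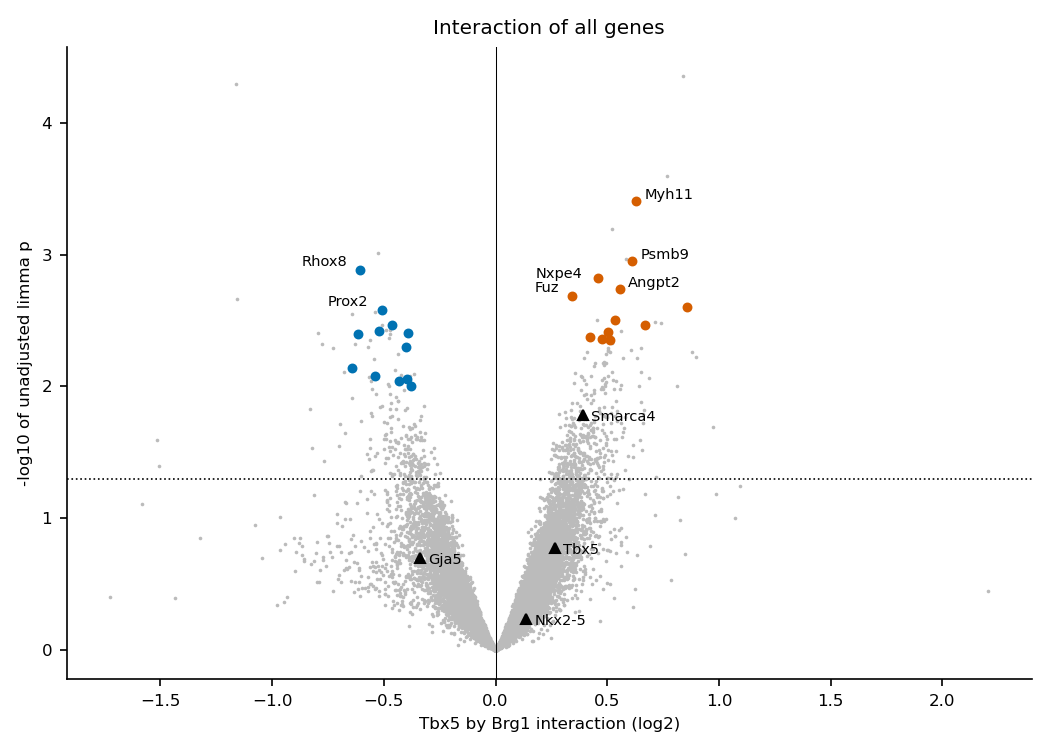
Interaction (log2, horizontal axis) against -log10 of the unadjusted limma p (vertical axis) for 19935 genes, with a dotted line at the unadjusted threshold of 0.05. Orange and blue points are the 12 named genes of each direction, of which some are labelled, black triangles are Smarca4, Tbx5, Nkx2-5 and Gja5, and the points around 0 spread slightly further to the right, where 393 genes pass the line against 213 on the left.

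Among genes of clear identity with a mean of at least log2 5, the positive interaction with the smallest p was at Myh11, the myosin heavy chain of smooth muscle. Myh11 read 6.95, 6.88 and 6.62 in the Tbx5+/- Brg1 +/- arrays. The Tbx5+/- arrays read 6.34, 6.39, 6.33, 6.14 and 6.57, and the lowest, median and highest signals were 6.12, 6.40 and 6.57 in wild type and 5.96, 6.26 and 6.40 in Brg1+/-. All doubly heterozygous arrays lay above all arrays of the other 3 genotypes, while the single deletions came with differences from wild type of -0.17 for Brg1 and -0.03 for Tbx5. The interaction was 0.63 (SE 0.16, 95% interval 0.31 to 0.95, unadjusted limma p 3.9e-04), and 0.73 without replicate 3. These genes were ranked by that p, so it serves as a description.

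Psmb9, a catalytic subunit of the immunoproteasome, had an interaction of 0.61 (SE 0.17). It read 7.27, 7.20 and 7.14 in Tbx5+/- Brg1 +/- and 6.61, 6.57, 6.75, 6.93 and 6.98 in Tbx5+/-. The wild type arrays had 6.81, 7.05 and 7.24 as lowest, median and highest signal, and the Brg1+/- arrays 6.69, 6.85 and 7.19. Psmb9 was lower in both single heterozygotes on average and highest in the double, which overlapped wild type but not Tbx5+/-. Angpt2, a ligand of the endothelial receptor Tie2, read 6.10, 6.05 and 5.99 in Tbx5+/- Brg1 +/- and 5.55, 5.60, 5.91, 5.88 and 5.80 in Tbx5+/-. From lowest over median to highest, wild type read 5.73, 5.93 and 6.04 and Brg1+/- read 5.45, 5.62 and 5.96. Both single heterozygotes lay below all doubly heterozygous arrays, and the interaction was 0.56 (SE 0.16).

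Fuz, an effector of planar cell polarity needed for cilia, was the most tightly measured of the leading genes. It read 6.77, 6.85 and 6.79 in Tbx5+/- Brg1 +/- and 6.58, 6.50, 6.55, 6.54 and 6.59 in Tbx5+/-. Wild type signals were 6.66, 6.71 and 6.81 at the lowest, median and highest, and those of Brg1+/- 6.49, 6.62 and 6.76. The Tbx5+/- arrays lay below those of wild type and of the double heterozygote, which overlapped each other, and the interaction was 0.34 (SE 0.10). Nxpe4 read 5.83, 5.79 and 5.72 in Tbx5+/- Brg1 +/- and 5.58, 5.39, 5.59, 5.87 and 5.59 in Tbx5+/-. Its lowest, median and highest signals were 5.62, 5.74 and 5.98 in wild type and 5.32, 5.49 and 5.56 in Brg1+/-. The Brg1+/- arrays stood below wild type and the double heterozygote, and the interaction was 0.46 (SE 0.13).

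The other positive genes of this rank had both single means below wild type and the double near or above it. They were Mir323 (interaction 0.86), Slc35e3 (0.67), Cebpd (0.53), Mir409 (0.51), Fcrl1 (0.50), Bod1 (0.48) and Gprc5b (0.42). Cebpd is a bZIP transcription factor, Bod1 acts in chromosome biorientation at mitosis and Gprc5b is an orphan G protein-coupled receptor. For Cebpd, Slc35e3, Gprc5b and Bod1 the doubly heterozygous arrays overlapped all other genotypes. Without replicate 3 the interactions of the 12 positive genes ran from 0.35 at Fuz to 0.85 at Mir323.

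The genes with the smallest p among negative interactions mostly had low signals. So had some of the positive ones, with means over all arrays of 5.08 to 5.22 at Cebpd, Fcrl1, Mir409 and Mir323. Rhox8, a homeobox gene of the reproductive cluster, read 4.61, 4.66 and 4.76 in Tbx5+/- Brg1 +/- and 4.80, 5.04, 4.77, 5.18 and 4.83 in Tbx5+/-. The wild type arrays had 4.60, 5.00 and 5.08 as lowest, median and highest signal, and the Brg1+/- arrays 4.94, 5.29 and 5.55. The doubly heterozygous arrays lay below both single heterozygotes and overlapped wild type, and the interaction was -0.61 (SE 0.17). Prox2, a homeobox gene, read 4.72, 4.82 and 4.51 in Tbx5+/- Brg1 +/- and 4.75, 5.05, 4.98, 5.41 and 4.73 in Tbx5+/-. From lowest over median to highest, wild type read 4.76, 4.87 and 5.09 and Brg1+/- read 4.96, 5.07 and 5.20, and only the Brg1+/- arrays stood clear of the double. The interaction was -0.51 (SE 0.15).

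Tcea1, which encodes a transcription elongation factor, was the one abundant gene among the leading negative ones. It read 9.90, 10.09 and 10.17 in Tbx5+/- Brg1 +/- and 10.28, 10.20, 10.02, 10.32 and 10.35 in Tbx5+/-. Wild type signals were 9.72, 10.01 and 10.15 at the lowest, median and highest, and those of Brg1+/- 10.16, 10.24 and 10.45. Each single deletion came with a higher mean, by 0.28 for Brg1 and 0.25 for Tbx5, and the double heterozygote lay only 0.07 above wild type. The interaction was -0.46 (SE 0.14), and -0.52 without replicate 3. Tcea1 has 2 probe sets, of which only that of the higher mean is given here. Over 32 alternative fits its interaction ran from -0.55 to -0.31.

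Zfat, a zinc finger gene, read 6.40, 6.28 and 6.27 in Tbx5+/- Brg1 +/- and 6.50, 6.52, 6.41, 6.72 and 6.48 in Tbx5+/-. Its lowest, median and highest signals were 6.19, 6.42 and 6.48 in wild type and 6.42, 6.56 and 6.73 in Brg1+/-. Both single heterozygotes lay above the double, and the interaction was -0.39 (SE 0.12). C5ar2, a receptor of the complement fragment C5a, read 5.41, 5.55 and 5.42 in Tbx5+/- Brg1 +/- and 5.58, 6.00, 5.69, 5.94 and 5.47 in Tbx5+/-. The wild type arrays had 5.31, 5.48 and 5.72 as lowest, median and highest signal, and the Brg1+/- arrays 5.61, 5.72 and 5.95. The double overlapped wild type and Tbx5+/-, and the interaction was -0.52 (SE 0.17).

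The other negative genes were Hmgb1 (-0.64), Tnfrsf23 (-0.62), Tmem81 (-0.54), Krt42 (-0.43), Cd177 (-0.40), Mir383 (-0.40) and Pabpc5 (-0.38). Hmgb1 encodes a chromatin protein and has many near-identical copies in the genome, so its signal may be shared with them. Without replicate 3 Tnfrsf23 had -0.37, and all 12 negative genes lay between -0.67 and -0.37.

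**Figure D3:**
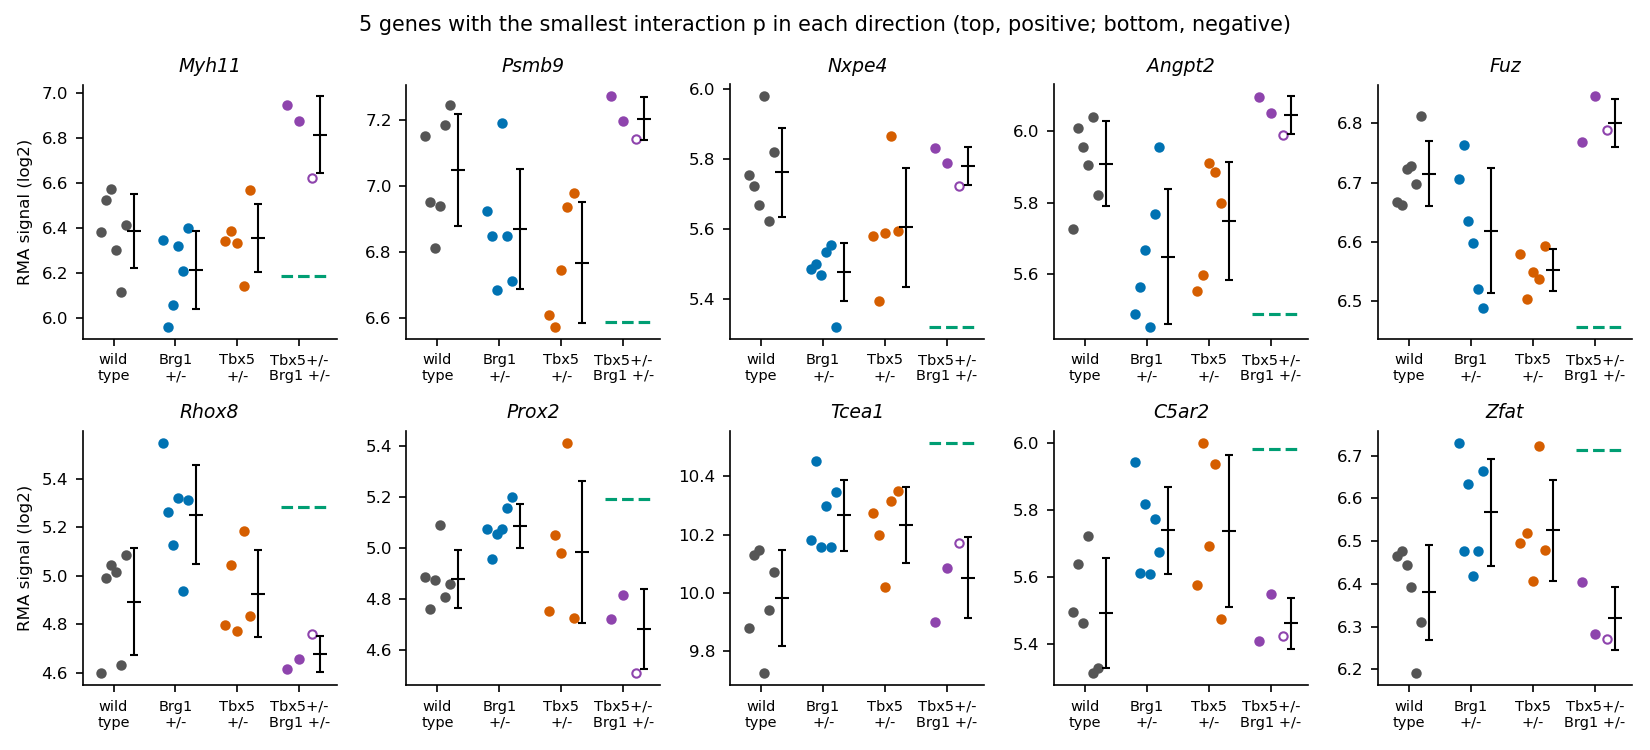
RMA signal (log2, vertical axis) in each array of the 4 genotypes (horizontal axis) for the 5 genes with the smallest interaction p in each direction, with a bar for the mean ± SD, a green dashed line at the sum of the single changes and an open circle for Tbx5+/- Brg1 +/- replicate 3. The doubly heterozygous arrays lie above the line in the upper row and below it in the lower row, and at Myh11 alone of these 10 genes they stand clear of all other arrays.

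Both miRNA genes among the positive ones, Mir323 and Mir409, lie in the same cluster on chromosome 12, and their products are shown because the seed is the part by which a miRNA recognises its targets. RefSeq (GRCm38.p6) holds these mature sequences, with the seed (bases 2 to 8) in capitals.
miR-323-5p: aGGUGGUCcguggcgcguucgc
miR-323-3p: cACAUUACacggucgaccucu
miR-409-5p: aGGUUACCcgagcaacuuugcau
miR-409-3p: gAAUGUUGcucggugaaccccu
The 4 seeds all differ from each other. Mir323 read 5.75, 5.44 and 5.62 in Tbx5+/- Brg1 +/- and 4.94, 5.40, 5.18, 5.33 and 5.06 in Tbx5+/-. From lowest over median to highest, wild type read 4.89, 5.30 and 5.80 and Brg1+/- read 4.18, 5.08 and 5.43. Mir409 read 5.54, 5.50 and 5.44 in Tbx5+/- Brg1 +/- and 4.99, 5.03, 5.20, 5.34 and 4.96 in Tbx5+/-, against 4.88, 5.26 and 5.54 in wild type and 4.86, 5.13 and 5.34 in Brg1+/-. In both cases the doubly heterozygous arrays lay above both single heterozygotes and overlapped wild type. Over all arrays the means of Mir323 and Mir409 were low, at 5.22 and 5.20. The array gives a value per miRNA gene from labelled total RNA and does not tell the mature arms apart. These values are therefore not levels of the mature sequences shown, which were not measured separately.

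Genes reported to depend on Tbx5 in the heart did not stand out as a group. Of 27 measured, 19 lay above 0 and 8 below, with a median of 0.09 against 0.03 over all genes, and 0 reached an unadjusted p under 0.05, which 3.04% of all genes did. Without replicate 3 the median was 0.21 and 22 lay above 0. Within this list the sign differed between genes, with Gja5 at the negative end and Vsnl1 at the positive end. Here and in the lists below, counts above 0 stand beside a share of 57.5% over all genes. Members of a list were read on the same arrays, so they are not independent of each other.

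Gja5, which encodes a gap junction protein of the atria and conduction system, was lowest in the double heterozygote. It read 8.77, 8.80 and 8.53 in Tbx5+/- Brg1 +/- and 9.07, 9.09, 9.74, 8.95 and 8.998 in Tbx5+/-. Wild type signals were 9.55, 9.81 and 9.96 at the lowest, median and highest, and those of Brg1+/- 9.30, 9.55 and 10.09. All doubly heterozygous arrays lay below all others, and the Tbx5+/- array at 9.74 lay within the wild type range. The Brg1 deletion came with a difference of -0.13 in hearts with both Tbx5 copies and of -0.47 in Tbx5+/- hearts. The interaction was -0.34 (SE 0.26, 95% interval -0.86 to 0.19), so the fall beyond additivity did not exceed the spread between arrays. It was -0.25 without Tbx5+/- Brg1 +/- replicate 3 and -0.20 without the Tbx5+/- array at 9.74. Against wild type the double heterozygote differed by -1.10 (limma adjusted p 0.10), in a comparison where 0 genes (0%) passed the adjusted threshold and 873 (4.38%) had an unadjusted p under 0.05. Without Tbx5+/- replicate 3, the array at 9.74, Gja5 passed the adjusted threshold. The difference stayed at -1.10, since that array enters this comparison only through the shared estimate of spread. In the other 19 fits with 1 array left out Gja5 did not pass. It also passed with the 20 arrays of these genotypes alone, with array weights and with the replicate number as a block.

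The promoter windows of Gja5 and of Nppa, the atrial natriuretic factor gene and a classical Tbx5 target, are shown since both genes are used as readouts of Tbx5. Each holds 300 bases, most of them before the start site, in RefSeq (GRCm38.p6, both plus strand), at chr3:97032152-97032451 and chr4:148000472-148000771, with the T-box core GGTGTGA or its reverse complement in capitals.
Gja5: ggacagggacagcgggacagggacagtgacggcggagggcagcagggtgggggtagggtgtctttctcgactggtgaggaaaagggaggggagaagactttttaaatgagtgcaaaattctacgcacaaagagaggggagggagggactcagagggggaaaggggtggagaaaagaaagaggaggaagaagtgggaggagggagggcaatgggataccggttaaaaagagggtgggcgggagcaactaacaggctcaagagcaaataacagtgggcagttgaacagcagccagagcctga
Nppa: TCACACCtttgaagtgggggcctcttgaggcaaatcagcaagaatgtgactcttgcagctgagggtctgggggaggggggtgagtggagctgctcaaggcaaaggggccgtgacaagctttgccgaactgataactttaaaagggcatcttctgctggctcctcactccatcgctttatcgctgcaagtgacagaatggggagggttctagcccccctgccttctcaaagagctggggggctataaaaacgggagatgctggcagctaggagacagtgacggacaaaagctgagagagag
The Gja5 window held no match on either strand, and the Nppa window held 1 on the opposite strand, at its outer edge. Of 22 Tbx5-dependent genes with a window, 1 held the core, against 683 of 15561 measured genes with a window (4.39%). Of the 27 genes chosen as targeted or by smallest p, 16 had a window and 0 held it. These counts describe letters in a short window and say nothing of binding.

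Nppa levels did not follow the genotypes. Nppa read 12.81, 12.88 and 12.11 in Tbx5+/- Brg1 +/- and 12.92, 12.75, 12.26, 12.77 and 12.43 in Tbx5+/-, against 12.17, 12.70 and 13.09 in wild type and 12.32, 12.57 and 13.23 in Brg1+/-. The groups overlapped throughout, with an interaction of -0.04 (SE 0.32) that turned to 0.20 without replicate 3. Kcna5, an atrial potassium channel, stepped down from wild type to the double heterozygote in the way that additive changes would give. It read 5.38, 5.73 and 5.64 in Tbx5+/- Brg1 +/- and 6.01, 5.92, 5.64, 5.92 and 5.98 in Tbx5+/-, against 5.90, 6.44 and 6.71 in wild type and 5.74, 6.04 and 6.66 in Brg1+/-. Its mean of 5.59 in the double lay beside an additive sum of 5.64, and the interaction was -0.05 (95% interval -0.53 to 0.43), and -0.08 without replicate 3.

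Vsnl1, a neuronal calcium sensor gene also expressed at the sinus node, had both single means already low. It read 8.01, 7.87 and 8.31 in Tbx5+/- Brg1 +/- and 8.48, 8.36, 8.38, 7.999 and 8.11 in Tbx5+/-. Its lowest, median and highest signals were 8.48, 8.93 and 9.30 in wild type and 7.84, 8.12 and 8.85 in Brg1+/-. The 3 mutant genotypes overlapped one another. The difference from wild type was -0.67 with the Brg1 deletion, -0.65 with the Tbx5 deletion and -0.86 with both, and the interaction was 0.47 (SE 0.25, 95% interval -0.04 to 0.97), or 0.34 without replicate 3. Gas1, a Hedgehog co-receptor gene, read 9.41, 9.35 and 9.24 in Tbx5+/- Brg1 +/- and 9.02, 9.20, 9.38, 9.24 and 9.17 in Tbx5+/-, against 8.61, 9.18 and 9.39 in wild type and 8.35, 8.98 and 9.04 in Brg1+/-. Only the Brg1+/- arrays lay clear of the double, and the interaction was 0.39 (SE 0.21). Tbx3, a T-box repressor of the conduction system, read 6.89, 6.43 and 6.50 in Tbx5+/- Brg1 +/- and 6.29, 6.37, 6.78, 6.75 and 6.78 in Tbx5+/-, against 6.72, 6.99 and 7.31 in wild type and 6.51, 6.72 and 6.75 in Brg1+/-. These groups overlapped, and the interaction was 0.32 (SE 0.18), which fell to 0.18 without Tbx5+/- Brg1 +/- replicate 1, the array at 6.89.

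**Figure D4:**
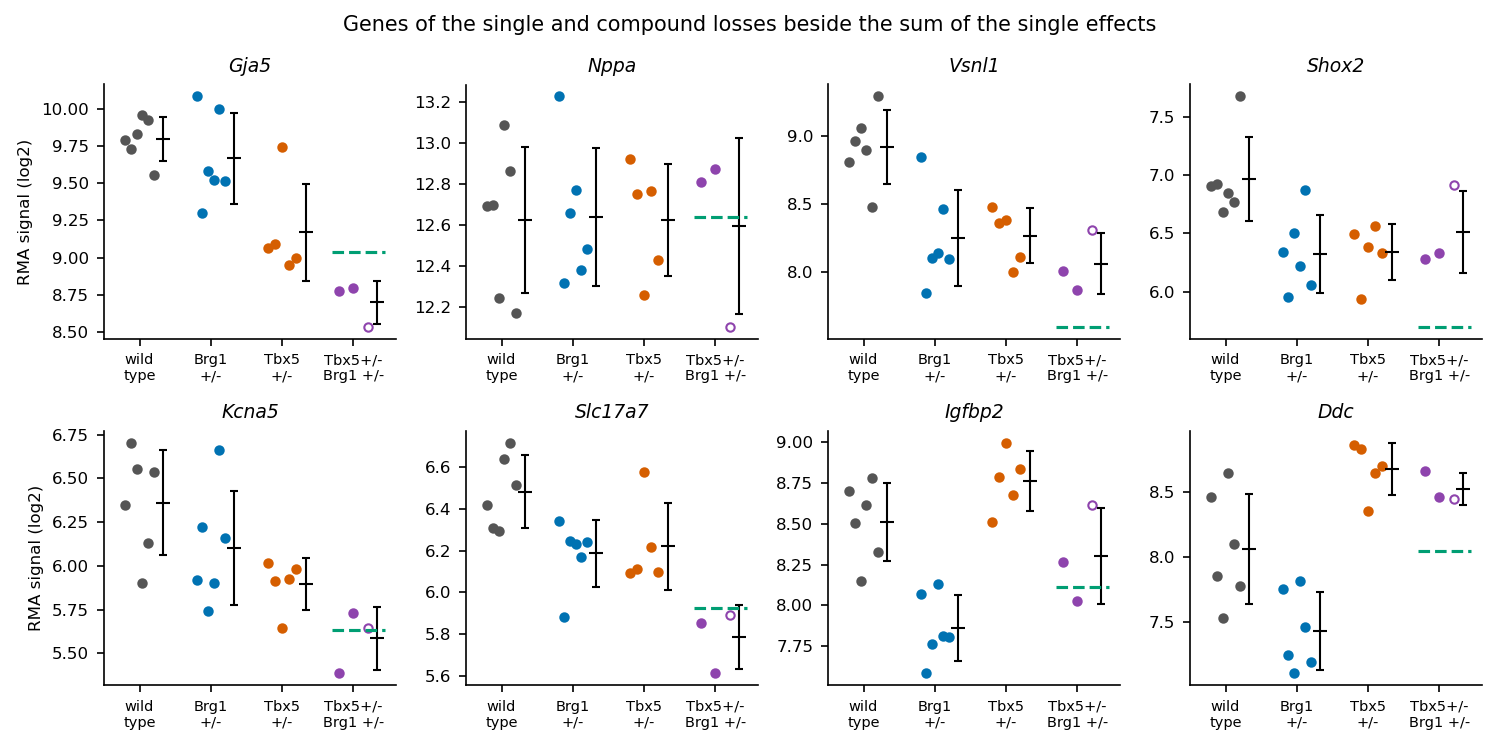
RMA signal (log2, vertical axis) in each array of the 4 genotypes (horizontal axis) for 8 genes, with a bar for the mean ± SD, a green dashed line at the sum of the single changes and an open circle for Tbx5+/- Brg1 +/- replicate 3. The doubly heterozygous arrays of Gja5 lie below the line, those of Kcna5 and Nppa lie around it, and those of Vsnl1, Shox2 and Ddc lie above it.

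Slc17a7 and Ap3b2 were also among the genes with the smallest p in the comparison of the double heterozygote with wild type. Their interactions were smaller in size than their SE, which does not bound them closely to additivity. Gja5 and Vsnl1, of the same ranking, lay further from 0. This ranking used the same arrays as the interaction. Slc17a7, a vesicular glutamate transporter gene, read 5.86, 5.61 and 5.89 in Tbx5+/- Brg1 +/- and 6.09, 6.11, 6.58, 6.22 and 6.10 in Tbx5+/-, against 6.29, 6.47 and 6.72 in wild type and 5.88, 6.24 and 6.34 in Brg1+/-. The double lay below wild type and Tbx5+/- in all arrays, with a mean difference of -0.70 from wild type (limma adjusted p 0.15), and the interaction was -0.14 (SE 0.18). Ap3b2, a subunit of a neuronal adaptor complex, had means of 7.49 ± 0.25 (SD, n = 6) in wild type, 7.08 ± 0.23 (n = 6) in Brg1+/-, 7.03 ± 0.22 (n = 5) in Tbx5+/- and 6.71 ± 0.03 (n = 3) in Tbx5+/- Brg1 +/-. The additive sum for Ap3b2 was 6.63, and its interaction was 0.08 (SE 0.23).

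Subunits of the BAF complexes lay on both sides of 0. Of 26 measured, 17 lay above 0 and 9 below, with a median of 0.10 (0.13 without replicate 3) and a range of -0.18 to 0.39. Bicra, which encodes a subunit of the non-canonical BAF complex, read 6.90, 7.01 and 6.93 in Tbx5+/- Brg1 +/- and 6.84, 6.79, 6.60, 6.84 and 6.77 in Tbx5+/-. The wild type arrays had 6.67, 6.81 and 6.97 as lowest, median and highest signal, and the Brg1+/- arrays 6.50, 6.75 and 6.79. The double lay above both single heterozygotes and overlapped wild type, with an interaction of 0.32 (SE 0.14), and 0.33 without replicate 3. Dpf1, a subunit of neuronal BAF complexes, had an interaction of 0.31 (SE 0.20).

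Cardiac transcription factors lay above 0 in 27 of 35 cases, with a median of 0.09 (0.20 without replicate 3). Their median difference with the Brg1 deletion was -0.17 in hearts with both Tbx5 copies and -0.04 in Tbx5+/- hearts. Shox2, a homeobox factor of the sinus node, had the largest interaction among them. It read 6.28, 6.33 and 6.91 in Tbx5+/- Brg1 +/- and 6.49, 5.94, 6.38, 6.56 and 6.33 in Tbx5+/-. From lowest over median to highest, wild type read 6.68, 6.88 and 7.68 and Brg1+/- read 5.95, 6.28 and 6.87. The differences from wild type were -0.64 in Brg1+/-, -0.63 in Tbx5+/- and -0.46 in the double, and the additive sum of 5.70 lay below all of their arrays. The interaction was 0.81 (SE 0.29, 95% interval 0.21 to 1.41), and 0.61 without replicate 3. Heyl, a Notch target and transcriptional repressor, had an interaction of 0.35 (SE 0.15). Notch pathway genes as a list had a median of 0.01 (0.06 without replicate 3), with 11 of 20 above 0.

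Conduction and ion channel genes had a median of 0.11 (0.17 without replicate 3), with 20 of 28 above 0. An unadjusted p under 0.05 was found for 2 of them (7.14%, against 3.04% of all genes), Shox2 and Kcnj8. Kcnj8, which encodes a pore subunit of ATP-sensitive potassium channels, read 6.44, 5.96 and 6.34 in Tbx5+/- Brg1 +/- and 5.92, 5.79, 6.195, 6.16 and 6.02 in Tbx5+/-, against 5.96, 6.33 and 6.67 in wild type and 5.78, 6.01 and 6.14 in Brg1+/-. The groups overlapped, with differences from wild type of -0.34 in Brg1+/-, -0.31 in Tbx5+/- and -0.08 in the double. The interaction was 0.57 (SE 0.19), and 0.52 without replicate 3.

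Contractile and metabolic genes of the muscle lay mostly above 0, by small amounts, where 57.5% of all genes lay above 0. Of 33 sarcomere genes 30 lay above 0, with a median of 0.13 (0.21 without replicate 3), none of them at an unadjusted p under 0.05. Their median difference with the Brg1 deletion was -0.19 in hearts with both Tbx5 copies and -0.05 in Tbx5+/- hearts. The mean signal of the sarcomere list, at its lowest, median and highest, was 9.99, 10.48 and 10.60 in Brg1+/- arrays and 10.33, 10.60 and 10.83 in wild type arrays. It was 10.69, 10.71 and 10.79 in Tbx5+/- arrays and 10.60, 10.69 and 10.75 in doubly heterozygous ones. Mitochondrial and fatty acid genes lay above 0 in 25 of 29 cases (median 0.08), calcium handling genes in 13 of 19 (0.09), and glycolysis and hypoxia genes in 17 of 21 (0.17). Without replicate 3 these medians were 0.13, 0.18 and 0.22. Aldoa and Pkm, which encode glycolytic enzymes, had interactions of 0.30 (SE 0.22) and 0.28 (SE 0.23), with lower means in Brg1+/- than in the other 3 genotypes.

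Smooth muscle genes had a median of 0.23 (0.30 without replicate 3), with 14 of 16 above 0. Among them 2 (12.5%, against 3.04% of all genes), Myh11 and Lmod1, had an unadjusted p under 0.05. Myh11 was also picked by that p, so this share was raised in advance. Shares above 3.04% were not limited to muscle lists. They were 2 of 20 immediate early genes, 2 of 20 foregut and epithelial genes, 2 of 26 BAF subunits and 2 of 35 cardiac transcription factors. Sarcomere, cell cycle and erythroid genes had 0. Lmod1, an actin nucleator of smooth muscle, had an interaction of 0.41 (SE 0.19). Myl9, a regulatory myosin light chain, had 0.26 (SE 0.21), and Rgs5, a pericyte marker, had 0.69 with an SE of 0.48. Skeletal and pharyngeal muscle genes lay above 0 in 19 of 23 cases with a median of 0.18 with and without replicate 3, and 3 (13.0%, against 3.04% of all genes) had an unadjusted p under 0.05. These were Tnni2, the fast skeletal troponin I (0.66), Chrng, a fetal acetylcholine receptor subunit (0.43), and Myh8, a perinatal myosin (0.35). Tnni2 read 7.90, 7.98 and 9.002 in Tbx5+/- Brg1 +/-, and without the array at 9.002, which is replicate 3, its interaction was 0.31. Its Brg1+/- arrays, 7.25 to 7.61, lay below those of the other 3 genotypes.

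Genes of the atrioventricular canal and outflow tract and of the tissues around the muscle also lay mostly above 0, as did 57.5% of all genes. The median was 0.22 for atrioventricular canal and outflow genes (18 of 22 above 0), 0.20 for cushion mesenchyme (20 of 26), 0.16 for extracellular matrix (24 of 25), 0.15 for epicardium (18 of 19), 0.13 for Bmp and Tgf-beta pathway genes (31 of 37), and 0.12 for endothelium and endocardium (21 of 26) and for second heart field and progenitor genes (14 of 18). Without replicate 3 these 7 medians were between 0.15 and 0.32. In these lists together, Fgf8 alone had an unadjusted p under 0.05, which 3.04% of all genes had. Fgf8, a growth factor of the outflow tract progenitors, read 7.52, 7.20 and 7.55 in Tbx5+/- Brg1 +/- and 7.10, 7.08, 6.96, 7.25 and 6.97 in Tbx5+/-, against 7.10, 7.30 and 7.57 in wild type and 6.80, 7.26 and 7.38 in Brg1+/-. The groups overlapped, and the interaction was 0.48 (SE 0.17), and 0.42 without replicate 3. Eln, elastin, had 0.82 (SE 0.43), Bmp4 had 0.33 (SE 0.19), and Prrx1, a mesenchymal homeobox factor, had 0.41 (SE 0.26). The Prrx1 value rested on single arrays, with 0.67 without Tbx5+/- Brg1 +/- replicate 3 and 0.20 without replicate 2 of that group.

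Red blood cell genes lay on the other side, further from 0 than any other tissue or pathway list. All 20 erythroid genes had a negative interaction, with a median of -0.67, and none had an unadjusted p under 0.05. The list mean per array, from lowest over median to highest, was 9.67, 10.80 and 11.33 in Brg1+/-, 9.21, 9.77 and 10.66 in wild type, and 9.27, 9.94 and 10.62 in Tbx5+/-. The Tbx5+/- Brg1 +/- arrays read 9.74, 9.57 and 10.90, the last being replicate 3, without which the median interaction was -1.12. Red cell transcripts were highest in Brg1+/- at the median, and the groups overlapped. Hemgn, an erythroid nuclear protein, had means of 8.30 ± 1.45 (SD, n = 6), 9.96 ± 0.73 (n = 6), 8.16 ± 0.65 (n = 5) and 8.50 ± 1.12 (n = 3) in wild type, Brg1+/-, Tbx5+/- and Tbx5+/- Brg1 +/-, with an interaction of -1.32 (SE 0.88). Hbb-bh1, an embryonic beta-like globin, had an interaction of -0.71 (SE 0.41). In bulk hearts, fewer cells of a type and less RNA per cell cannot be told apart.

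Since the erythroid mean moved across the same contrast as the muscle lists, their medians were also taken with that mean as a covariate. For sarcomere genes this gave -0.03, cardiac transcription factors -0.02, conduction and ion channel genes -0.03, calcium handling genes -0.01, endothelium and endocardium -0.02 and Tbx5-dependent genes -0.09. Among heart and muscle lists, those with a median of at least 0.10 under the covariate were smooth muscle (0.10), atrioventricular canal and outflow (0.15), epicardium (0.16), and skeletal and pharyngeal muscle (0.17). The leukocyte and platelet median was 0.31. The part of red cell content in the interactions was not tested beyond these values. Myh11 had an interaction of 0.67 under the same covariate.

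Cell cycle genes lay below 0 in 23 of 29 cases, with a median of -0.12, which was -0.14 without replicate 3 and -0.04 with the erythroid mean as a covariate. Plk1, a mitotic kinase, had an interaction of -0.24 (SE 0.13), and Ccna2, cyclin A, had -0.28 (SE 0.19). Among cell types that a dissected heart can bring along, leukocyte and platelet genes had a median of 0.15 (13 of 21 above 0), liver genes 0.05 (11 of 19), neural crest and neural genes 0.01 (12 of 20), and foregut and epithelial genes 0.08 (12 of 20). Without replicate 3 these medians were 0.14, 0.05, -0.01 and 0.04. The macrophage genes C1qc and Csf1r had interactions of 0.61 (SE 0.28) and 0.47 (SE 0.25), with Brg1+/- the lowest of the 4 means. The mean signal of the liver list reached 7.31 in a wild type array and lay between 5.44 and 5.58 in the doubly heterozygous arrays. Immediate early genes, which respond to handling, had a median of 0.00 (0.07 without replicate 3), with 11 above 0 and 9 below. An unadjusted limma p under 0.05 was found for 1 positive and 1 negative member. Egr1 had an interaction of -0.39 (SE 0.17), while that of Nr4a2 ran from 0.22 to 0.33 over 32 alternative fits. Sex-linked genes had the widest values of all genes, 2.20 at Xist and -1.72 at Eif2s3y (1.24 and -0.92 without replicate 3), with an SD of 2.34 for Xist over the wild type arrays alone. Xist read 4.33 to 4.96 and Eif2s3y 7.66 to 8.39, as in males, in wild type replicate 3, Brg1+/- 3, 4 and 5, Tbx5+/- 2 and 4, and Tbx5+/- Brg1 +/- 1. In the other arrays of these genotypes they read 9.93 to 10.58 and 2.89 to 3.61, as in females. The mix of sexes thus differed between genotypes. Its part in the interactions was not tested beyond a fit with the Y-linked mean as a covariate.

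**Figure D5:**
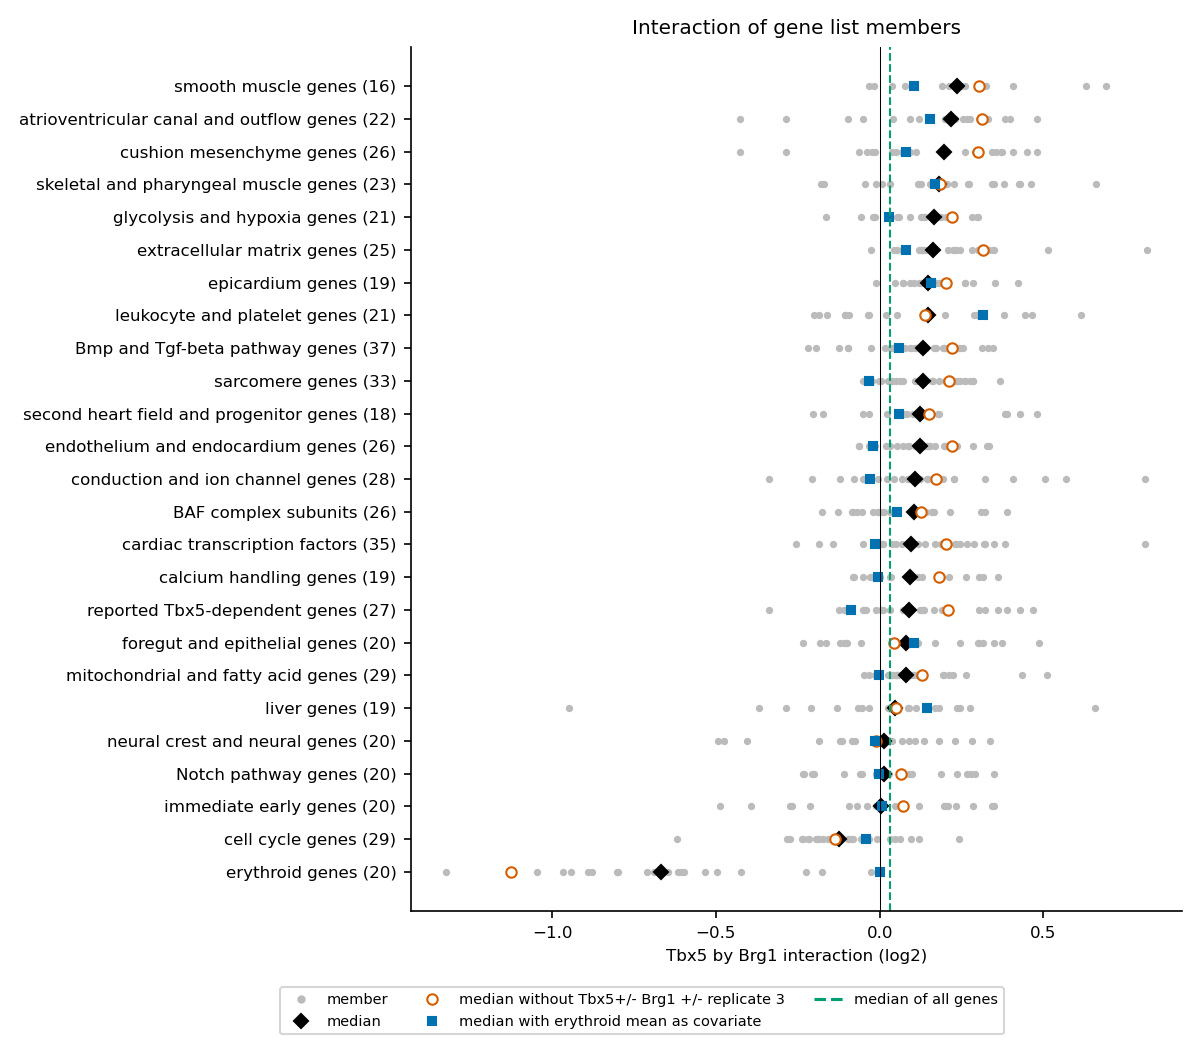
Interaction (log2, horizontal axis) of the members of gene lists (grey points, number measured in brackets), with the list median as a black diamond, the median without Tbx5+/- Brg1 +/- replicate 3 as an open orange circle and the median with the erythroid mean as a covariate as a blue square. The green dashed line is the median of all genes, 0.03. All erythroid genes lie below 0, and most muscle and mesenchyme medians lie to the right of the line and move toward it under the covariate.

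The interaction is the difference between the Brg1 effects in the presence and absence of a Tbx5 deletion, and these effects passed for different numbers of genes. The Brg1 deletion in hearts with both Tbx5 copies gave 2 genes at a limma adjusted p under 0.05 (0.01% of those tested), Smarca4 (-0.74, adjusted p 3.1e-04) and Igfbp2 (-0.65, adjusted p 0.036). In Tbx5+/- hearts it gave 0 (0%), with 494 genes (2.48%) at an unadjusted p under 0.05 against 1935 (9.71%) in the first case. The second comparison has fewer arrays, and the difference between them is the interaction, which passed for 0 genes. Igfbp2, which binds insulin-like growth factors, read 8.26, 8.03 and 8.62 in Tbx5+/- Brg1 +/- and 8.51, 8.79, 8.999, 8.68 and 8.84 in Tbx5+/-, against 8.15, 8.56 and 8.78 in wild type and 7.58, 7.81 and 8.13 in Brg1+/-. The Brg1+/- arrays lay below the wild type arrays, and in Tbx5+/- hearts the mean difference was -0.46. With 1 array left out in turn, the Igfbp2 call was lost in 12 of 20 fits (Brg1+/- replicates 2, 3, 5 and 6, wild type 1, 2, 4 and 5, Tbx5+/- 2, 4 and 5, and Tbx5+/- Brg1 +/- 1), and that of Smarca4 in 0. The interaction at Igfbp2 was 0.19 (SE 0.18, 95% interval -0.18 to 0.57), and 0.04 without replicate 3.

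Read the other way, the Tbx5 deletion gave 0 genes (0%) at the limma adjusted threshold in hearts with both Brg1 copies and 0 (0%) in Brg1+/- hearts, with 788 (3.95%) and 1626 (8.16%) at an unadjusted p under 0.05. The nearest was Ddc, the aromatic amino acid decarboxylase, in Brg1+/- hearts. It read 8.67, 8.46 and 8.45 in Tbx5+/- Brg1 +/- and 8.87, 8.83, 8.36, 8.65 and 8.71 in Tbx5+/-, against 7.54, 7.98 and 8.65 in wild type and 7.11, 7.36 and 7.82 in Brg1+/-. Both genotypes with the Tbx5 deletion lay above all Brg1+/- arrays. The difference with Tbx5 deletion was 1.09 in Brg1+/- hearts (limma adjusted p 0.051) and 0.62 in hearts with both Brg1 copies. With 1 array left out in turn, Ddc was called in Brg1+/- hearts in 6 of 20 fits (Brg1+/- replicates 1 and 4, Tbx5+/- 3, and wild type 1, 3 and 4). The interaction was 0.48 (SE 0.24, 95% interval -0.02 to 0.98). Slc35d3, a nucleotide sugar transporter gene, had an interaction of 0.47 (SE 0.17), with a mean of 5.60 in Tbx5+/- and of 6.03 to 6.06 in the other 3 genotypes.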

How the data were processed

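Affymetrix arrays were hybridised with biotin-labelled total RNA of E11.5 hearts, 1 per sample, per the labels. The deposited values are log2 signals. The submitters' processing notes name Affymetrix Power Tools and RMA as what the authors used, while versions and genome build are not given in the sources used here. They were used as deposited: 28815 probe sets, of which 21780 had 1 gene symbol in the platform annotation, 1605 several and 5430 none or no entry. Each of 998 genes had more than 1 such probe set and was represented by that of the highest mean, which left 19935 genes. Array medians lay between 6.18 and 6.33, and correlations between the 20 arrays between 0.978 and 0.995. Arrays carry no counts, so their number limits the precision.

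Arrays were grouped by genotype label. limma 3.58.1 in R 4.3.3 was fitted with a mean per group to all 27 arrays, with an untrended empirical Bayes prior (6.71 degrees of freedom, beside 21 residual ones). Tests were two-sided, adjusted by Benjamini-Hochberg over all genes, and called at an adjusted p under 0.05. The fit was tested on simulated data. The interaction and its gene lists were chosen with earlier results of these data known.

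The rule for named genes took Smarca4, Tbx5 and Nkx2-5, the 12 smallest interaction p in each direction with a mean of at least log2 5 and a named gene, 3 genes of each list, and 5 of each comparison with wild type. Some of these are left out, and 5 genes (Nppa, Meg3, Dlk1, Mir412, Cct8l1) were added after their values were seen. Plots were made in Python 3.11.15 (matplotlib 3.10.9). RefSeq sequences were matched by the gene identifier of the platform annotation.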

Additional observations from a re-analysis of the deposited data

Results flagged for a closer look

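Of 201 group values tested for an outlying array, 17 (8.46%) had one. Chance gives about 1 in 20 for independent values. These values were read on the same arrays and are not independent, so the 2 rates cannot be set against each other. Tbx5+/- replicate 3 stood apart in several of the 17. It read 9.74 for Gja5, above 8.95 to 9.09 in the other Tbx5+/- arrays, 6.58 for Slc17a7, 5.64 for Kcna5 and 8.51 for Tbx5, and 8.69 for the mean of the epicardium list. The remaining outlying Tbx5+/- values were 6.48 for Gimap9 in replicate 2 and 4.72 for Fcrl1 in replicate 4.

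In wild type, replicate 6 read 8.96 for Tbx5, replicate 2 read 7.08 for Slc35e3 and 8.61 for Gas1, and the liver list mean was 7.31 in replicate 3. In Brg1+/-, Nxpe4 read 5.32 in replicate 6, Fcrl1 read 4.67 and Gas1 8.35 in replicate 1, and the list means were 7.06 for leukocyte and platelet genes in replicate 4, 6.51 for liver genes in replicate 6 and 6.68 for neural crest and neural genes in replicate 3. The doubly heterozygous group has 3 arrays and was not tested for outlying ones.

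Probe sets with no gene in the platform annotation stayed outside the comparisons, and 2 of them passed limma's test over all probe sets. Probe set 10417068 was higher with the Brg1 deletion in hearts with both Tbx5 copies by 1.79 (adjusted p 0.0019). Its group means were 4.84 in wild type, 6.64 in Brg1+/-, 6.30 in Tbx5+/- and 5.66 in Tbx5+/- Brg1 +/-. Its interaction of -2.44 (SE 0.41, 95% interval -3.29 to -1.59) had the smallest p of all 28815 probe sets and an adjusted p of 0.091. Probe set 10549265 differed by -0.81 with the Brg1 deletion (adjusted p 9.3e-04) and by -0.87 between the double heterozygote and wild type (adjusted p 0.017), with an interaction of 0.37 (SE 0.17).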

How the results depend on the processing

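Under 32 alternatives, 109 of 112 named genes kept the sign of the interaction and 0 were called. The count of genes called for the interaction was 0 in all alternatives except 2 with array weights and 1 with the erythroid mean as a covariate, where Vmn1r48 was called in both and 1700003E16Rik under weights. Leaving out each array in turn gave 0 throughout, and moved the interaction of 34 named genes by over 1.5 times in at least 1 fit. For the Brg1 deletion in hearts with both Tbx5 copies the count of 2 became 4 with equal array medians, all probe sets or without the arrays against their label, 1 with quantile normalization, the 20 arrays alone or the erythroid or Y-linked mean as a covariate, and 1 to 4 with an array left out. For that deletion in Tbx5+/- hearts it was 2 with array weights and 0 to 0 with an array left out. For the Tbx5 deletion in Brg1+/- hearts it was 1 without the genes of lowest mean or with a trended, robust prior, 3 with array weights, and 0 to 1 with an array left out. For the double heterozygote against wild type it was 1 with the 20 arrays alone or all probe sets, 6 with array weights and 0 to 1 with an array left out. Nppa turned to 0.088 with array weights and 0.20 without the arrays against their label, and ran from -0.18 to 0.20 with an array left out, Kcna5 ran from -0.12 to 0.063, and Nkx2-5 turned to -0.042 with the erythroid mean. The causes were not tested. Equal array medians moved the median of all genes to -0.02. The number of doubly heterozygous arrays limits the precision throughout.

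With the replicate number as a block, counts were 0 for the interaction and 1 for each of the Brg1 deletion in hearts with both Tbx5 copies, the Tbx5 deletion in Brg1+/- hearts and the double heterozygote against wild type. The numbers showed no pairing at the median. Deviations of same-numbered arrays correlated from -0.17 to 0.39 over 25 pairs, of which 7 were over 0.1. Their median was -0.02, against -0.001 over 122 other pairs. Whether some same-numbered arrays share a batch or litter was not tested beyond these values.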

Other observations

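Mir323 and Mir409 lie in the imprinted Dlk1 to Mir369 cluster on chromosome 12, whose maternally expressed RNAs include Meg3 and a large set of miRNAs, and whose paternally expressed genes include Dlk1. The cluster was looked at after these values were seen, so its counts are a description. Of 47 genes measured there, 40 of them miRNA genes, 34 had a positive and 13 a negative interaction, with a median of 0.12 (0.20 without Tbx5+/- Brg1 +/- replicate 3). Over all 291 miRNA genes on the array the median was 0.01 and 52.6% lay above 0. At an unadjusted limma p under 0.05 there were 3 cluster genes (6.38%), all positive, against 1.97% of all genes in that direction: Mir323, Mir409 and Mir412. Mir323 and Mir409 were picked by that p and led to the cluster, so the share was raised in advance. Mir412 read 3.08 to 3.99 over the 20 arrays, under the log2 5 used for naming genes. Within the cluster the median difference with the Brg1 deletion was -0.08 in hearts with both Tbx5 copies and 0.06 in Tbx5+/- hearts. Meg3 had means of 9.48 ± 0.19 (SD, n = 6) in wild type, 9.02 ± 0.26 (n = 6) in Brg1+/-, 9.35 ± 0.12 (n = 5) in Tbx5+/- and 9.39 ± 0.42 (n = 3) in Tbx5+/- Brg1 +/-, with an interaction of 0.49 (SE 0.29), and 0.74 without replicate 3. Dlk1, a Notch-like ligand of progenitors, had 0.34 (SE 0.24), with 0.54 without Tbx5+/- Brg1 +/- replicate 3 and 0.14 without replicate 1 of that group. These genes share a locus and probably transcripts, so they are not independent of each other.

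Outside the rule for names, Cct8l1 had a smaller p than Myh11 but a mean signal under log2 5, with an interaction of 0.77 (SE 0.18, unadjusted limma p 2.6e-04).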
